A study of Bos taurus with 6 samples.

Results

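This account covers ALPL, the tissue-nonspecific alkaline phosphatase, and 8 further genes of tissue mineralization in cultured bovine ovarian stromal cells. ALPL was chosen by its large excess in tumor over normal cultures, so its difference is given here as a description without a test. The remaining 8 genes (ENPP1, ANKH, SPP1, IBSP, MGP, RUNX2, SP7 and PHOSPHO1) were taken by symbol for their known roles, to ask whether the rise of ALPL came with other bone-type genes. All 9 were measured, each by 1 row of the array, among 18010 named genes.

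The study measured messenger RNA by microarray in stromal fibroblasts of the cow, Bos taurus, 3 samples from ovarian tumor and 3 from normal ovary. Both groups were grown in DMEM/F12 medium with FKS, as the labels write it, with no particular treatment. The labels give no tumor type, genotype, breed, age or passage, and do not say whether the samples of a group came from separate animals, and the p-values below therefore cover the variation among these arrays alone, part of which may be technical. Expression is given as log2 values from RMA, a method that corrects background, equalises the arrays and summarises the probes of each row, so that a difference of 1 is a doubling of signal.

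Mineral forms where phosphate accumulates and inhibitors of crystal growth are removed. ENPP1 makes pyrophosphate, a strong inhibitor of crystal growth, from extracellular ATP, and ANKH is a membrane protein needed for the release of ATP and pyrophosphate from the cell. ALPL, anchored on the cell surface, splits pyrophosphate into phosphate, while PHOSPHO1 frees phosphate inside the vesicles that bone-forming cells shed. SPP1 (osteopontin), IBSP (bone sialoprotein) and MGP (matrix Gla protein) are secreted proteins that bind calcium mineral. RUNX2 and SP7 (osterix) are the transcription factors that commit mesenchymal cells to the osteoblast lineage. ALPL is not confined to bone and is also made in liver, kidney and many stromal cells.

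The arrays were alike in scale, each with a median between 4.45 and 4.55, and precision was limited by their number. The labelled cell type was checked against marker genes. All 12 fibroblast markers measured lay above 3.54 in at least 1 group, a level under which 95% of the group means of 710 olfactory receptor genes fell and which served as a guide to background. Of other cell types, 5 of 10 leukocyte, 5 of 7 epithelium, 5 of 7 endothelium and 7 of 10 pericyte and smooth muscle markers were above it in at least 1 group. So were 12793 of all 18010 genes, and these counts for other cell types therefore identify none. The pericyte and smooth muscle list held DES, with a mean of 10.79 in tumor and 11.88 in normal cells. PTPRC, the defining marker of leukocytes, and EPCAM, of epithelium, lay at or under 2.44 in all 6 samples, but the leukocyte list also held CD68, with a mean of 6.41 in tumor and 5.26 in normal cells, and the epithelium list held KRT18, at 4.36 in tumor and 7.14 in normal cells. Of the endothelium markers, KDR and TEK were under the level, CDH5 lay at 3.49 to 3.75, and CLDN5 and ERG averaged 4.62 and 4.41 in tumor cells and 4.36 and 3.58 in normal cells. Normal cultures did spread more than tumor cultures along the second principal component (12.1% of the variance), with scores of 29.7, 4.57 and -27.4 in normal 1, 2 and 3, against -2.83 to -1.81 in the tumor samples.

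ALPL stood at 10.75, 10.74 and 10.48 in tumor 1, 2 and 3, against 4.54, 3.85 and 3.99 in normal 1, 2 and 3. All tumor samples were far above all normal samples, with a range of 0.27 among tumor samples and 0.69 among normal samples. The means were 10.66 ± 0.15 in tumor and 4.13 ± 0.36 in normal cells (SD, n = 3 each), a difference of 6.53 on the log2 scale, or 92.4-fold. The normal values were only a little above the background guide of 3.54, so the fold depends on how much of the normal signal was transcript. Leaving out each sample in turn gave differences from 6.39 to 6.74. In these bulk samples, more cells with ALPL and more ALPL mRNA per cell cannot be told apart. ALPI, the intestinal member of the alkaline phosphatase family, lay at 1.66 to 2.13 in tumor and 2.0 to 2.23 in normal samples, under the background guide in both groups (difference -0.18, adjusted p = 0.496, limma with Benjamini-Hochberg adjustment over all genes, as for every adjusted p below).

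Of the 8 other mineralization genes, MGP and RUNX2 rose, ANKH fell, and ENPP1, SPP1, IBSP, SP7 and PHOSPHO1 did not pass an adjusted p of 0.05. Over all genes 18.0% passed, 8.56% higher and 9.44% lower in tumor cells. In 6 of the 8 genes every tumor sample lay on 1 side of every normal sample, as in 35.7% of all genes. The members were named with results of this same comparison known, so nothing is read from these counts.

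**Figure D1:**
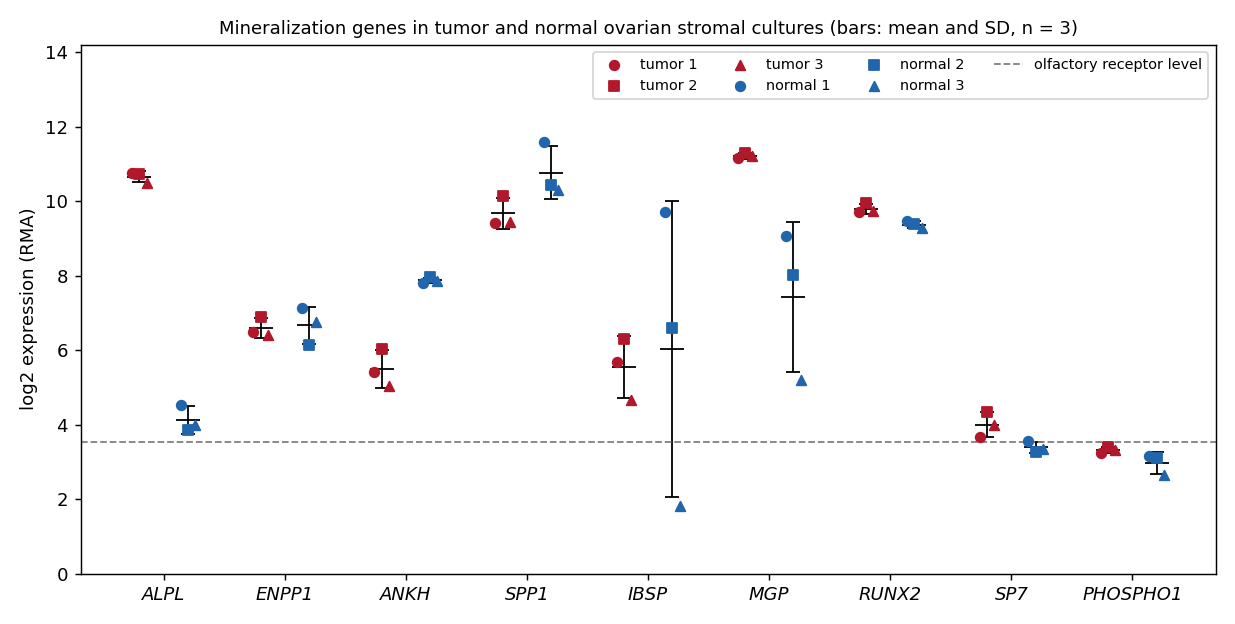
Log2 expression of the 9 mineralization genes in each tumor (red, left) and normal (blue, right) sample; black bars are group means with SD (n = 3) and the dashed line is the olfactory receptor level of 3.54. ALPL and MGP were higher in every tumor sample, ANKH was lower in every tumor sample, and IBSP and MGP were widely spread among normal samples.

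Of the genes that set the supply of pyrophosphate, ANKH, for export, fell and ENPP1, for synthesis, did not pass. ANKH was at 5.4, 6.03 and 5.03 in tumor 1, 2 and 3, against 7.81, 7.95 and 7.85 in normal 1, 2 and 3. Every tumor sample lay below every normal sample. ANKH thus differed by -2.38 ± 0.23 (log2, SE), with a 95% interval from -2.92 to -1.84 and an adjusted p of 0.000699 in limma. It was called in all 6 fits that left out 1 sample, with differences from -2.65 to -2.15. ENPP1 was at 6.48, 6.89 and 6.41 in tumor samples, against 7.12, 6.14 and 6.75 in normal samples. The groups overlapped, and the difference of -0.08 ± 0.25 had a 95% interval from -0.66 to 0.50 (adjusted p = 0.879 in limma).

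The phosphatase of mineralizing vesicles gave little signal. PHOSPHO1 was at 3.25, 3.41 and 3.33 in tumor samples, against 3.17, 3.11 and 2.64 in normal samples, all under the background guide. Its difference of 0.36 ± 0.16 did not pass (adjusted p = 0.175 in limma, 95% interval -0.01 to 0.73).

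MGP, a vitamin K-dependent inhibitor of calcification in arteries and cartilage, was at 11.15, 11.30 and 11.20 in tumor 1, 2 and 3, against 9.07, 8.02 and 5.19 in normal 1, 2 and 3. The tumor samples lay within 0.15 of each other and above all normal samples, while the normal samples spread over 3.88. MGP rose by 3.79 ± 0.83 (log2, SE; 95% interval 1.86 to 5.72; adjusted p = 0.0187 in limma), or 13.8-fold. Leaving out tumor replicate 1, 2 or 3 ended the call (adjusted p = 0.0558, 0.0617 and 0.0533), where the difference was 3.75 to 3.82, and was kept without any 1 normal sample (adjusted p = 0.00199 to 0.0459). The size depended most on normal replicate 3, and was 2.67 without it. Limma uses 1 spread for both groups, which here differ, with an SD of 0.08 in tumor and 2.01 in normal cells.

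SPP1, an acidic phosphoprotein that binds mineral and integrins and is made by many cells outside bone, was at 9.42, 10.15 and 9.44 in tumor samples, against 11.59, 10.42 and 10.29 in normal samples. The tumor values were all lower, by as little as 0.14 between the nearest samples. The difference of -1.10 ± 0.36 did not pass (adjusted p = 0.0716 in limma; 95% interval -1.92 to -0.27), and leaving out each sample in turn gave an adjusted p from 0.0568 to 0.194.

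IBSP, a phosphoprotein that can start crystal formation and is otherwise typical of bone and mineralizing cartilage, was at 5.68, 6.31 and 4.66 in tumor 1, 2 and 3, against 9.70, 6.60 and 1.81 in normal 1, 2 and 3. The tumor samples lay between the extremes of the normal samples. The difference was -0.49 ± 1.68 (adjusted p = 0.886 in limma), with a 95% interval from -4.36 to 3.39, which holds large changes in either direction. It was 1.35 without normal replicate 1 and -2.60 without normal replicate 3 (adjusted p = 0.527 and 0.0983).

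**Figure D2:**
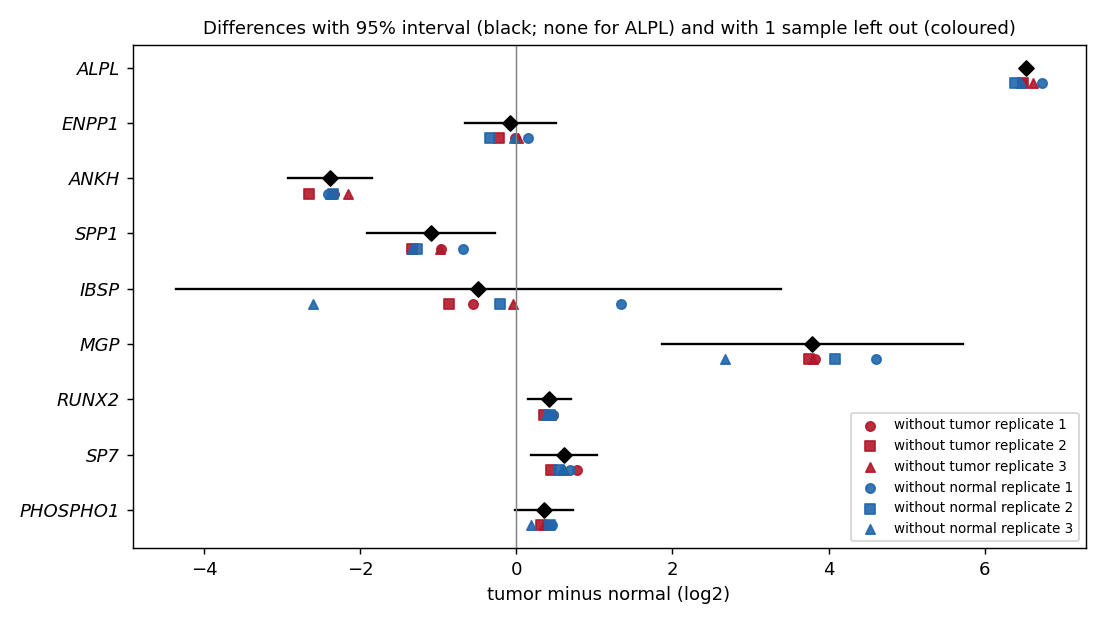
Tumor minus normal difference (log2) of each mineralization gene over all 6 samples (black diamond, with the 95% interval from limma except for ALPL) and with 1 sample left out (coloured symbols). The values of ANKH stay between -2.65 and -2.15, while those of IBSP run from -2.60 to 1.35 and cross 0.

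The spread of IBSP among normal cultures was the widest of all 18010 genes. Its highest and lowest normal samples were 7.89 apart on the log2 scale, where the median gene had a range of 0.31 among normal and 0.29 among tumor samples. MGP ranked sixth from the top by the same measure, with a range of 3.88. SPP1 ranked 332, with a range of 1.3, and in all 3 of these genes normal 1 was the highest and normal 3 the lowest sample. ALPL did not follow this order, with normal 2 the lowest, and its range of 0.69 ranked 2064. RUNX2 and ANKH were among the steadier genes in normal cells, with ranges of 0.19 and 0.14. Among tumor samples IBSP had a range of 1.65 (rank 76) and MGP a range of 0.15 (rank 14346).

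**Figure D3:**
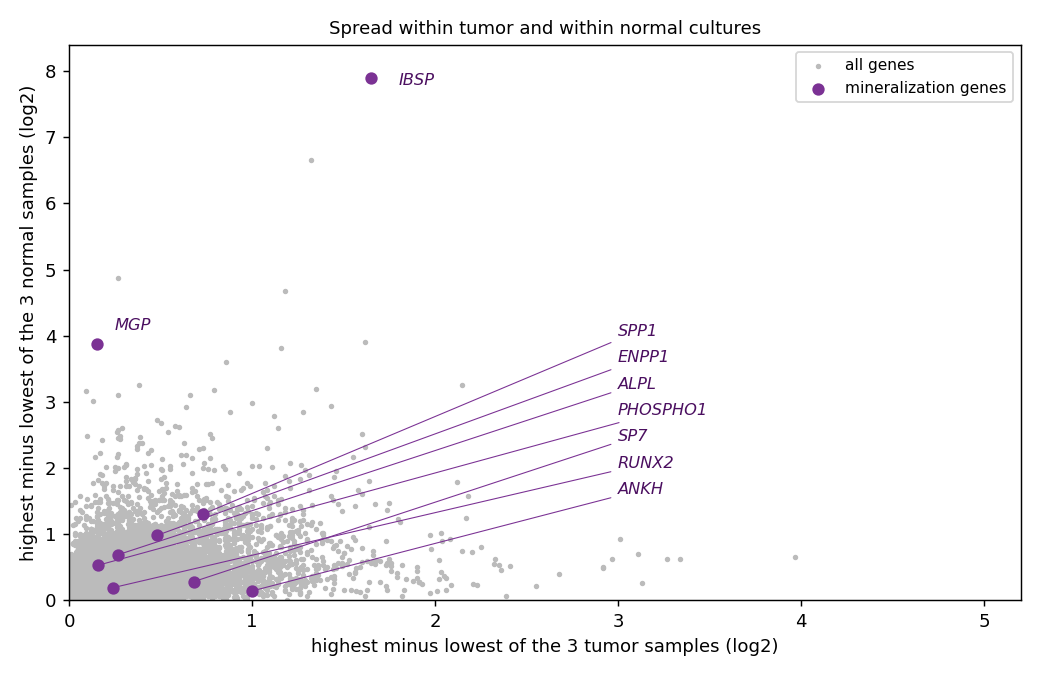
Range (highest minus lowest sample, log2) of each gene among the 3 tumor samples (horizontal axis) and the 3 normal samples (vertical axis), for all 18010 genes (grey) and the mineralization genes (purple). IBSP had the widest range of all genes in normal cells, at 7.89, and MGP combined a range of 3.88 in normal cells with 0.15 in tumor cells.

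SPP1 and IBSP belong to 1 family of acidic bone and tooth proteins, and in the RefSeq table of assembly ARS-UCD2.0 they are near neighbours with MEPE, another member, between them. MEPE was at 2.55, 3.24 and 2.18 in tumor samples, against 2.71, 2.28 and 1.98 in normal samples, all under the background guide. DMP1 and DSPP, further members, were under it in every sample too, at 1.93 to 2.02 and 2.48 to 2.99 in tumor samples and 1.81 to 2.05 and 2.85 to 2.95 in normal samples. Of these 5 members, SPP1 and IBSP gave signal above that guide, with IBSP under it in normal 3.

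Of the bone transcription factors, RUNX2 was at 9.70, 9.94 and 9.74 in tumor samples, against 9.46, 9.38 and 9.27 in normal samples. Its level was well above background in both groups, and every tumor sample was above every normal sample. RUNX2 rose by 0.42 ± 0.12 (log2, SE; 95% interval 0.15 to 0.70), or 1.34-fold, with an adjusted p of 0.0457 in limma. The call did not hold without any 1 of the 6 samples (adjusted p = 0.0559 to 0.152), nor with quantile normalization (0.0511) or median centring (0.0543).

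SP7, which acts downstream of RUNX2 in bone, was at 3.66, 4.34 and 3.99 in tumor samples, against 3.55, 3.27 and 3.34 in normal samples. The groups did not overlap, and the values lay close to the background guide. The difference of 0.61 ± 0.18 did not pass (adjusted p = 0.0552 in limma; 95% interval 0.19 to 1.03). It did pass without tumor replicate 1 (adjusted p = 0.0286), with array weights (0.00879), and with the dimmest 25% of genes left out (0.047) or genes under the olfactory receptor level left out (0.0453).

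Further genes of mineral and phosphate metabolism were read from lists, each given by its counts. Of 15 measured genes of phosphate and pyrophosphate metabolism and matrix vesicles, 2 rose and 6 fell, with a median difference of -0.22, beside 8.56% higher, 9.44% lower and a median of 0.02 over all genes. The phosphate importers SLC20A2 (-1.45 ± 0.19, adjusted p = 0.00247) and SLC20A1 (-0.90 ± 0.15, 0.00703) fell, as did the phosphate exporter XPR1 (-0.44 ± 0.10, 0.0243; 0.055 to 0.0971 without any 1 sample but normal replicate 1). SLC20A2 was at 5.60, 6.19 and 5.82 in tumor samples, against 7.46, 7.47 and 7.02 in normal samples, with no overlap. PPA1, the cytosolic pyrophosphatase, fell too, by 1.03 on the log2 scale (adjusted p = 0.00829 in limma), and so did the annexin ANXA6 (-0.64 ± 0.12, 0.0095) and the nucleoside transporter SLC29A1 (-0.46 ± 0.12, 0.031; 0.074 to 0.113 without tumor replicate 1 or 2 or normal replicate 2 or 3). The 2 that rose act on extracellular nucleotides. ENTPD1, which breaks down ATP and ADP, rose by 1.36 ± 0.21 (adjusted p = 0.0046), and NT5E, which turns AMP into adenosine and phosphate, rose by 1.84 ± 0.38 (adjusted p = 0.0146; 0.0503 to 0.0553 on leaving out tumor replicate 2 or 3 or normal replicate 2). ANXA2 and ANXA5, annexins of matrix vesicles, differed by -0.22 and -0.20 and did not pass (adjusted p = 0.386 and 0.272). Without tumor replicate 1 or 2, or normal replicate 2 or 3, 4 genes fell, and without tumor replicate 2 or 3, or normal replicate 2, 1 rose.

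Of 11 genes listed as calcification inhibitors or their cofactors, 4 passed and all 4 rose (36.4%, beside 8.56% over all genes), with a median difference of 0.23. GAS6, a ligand of receptor kinases that like MGP carries vitamin K-dependent Gla residues, was at 7.71, 7.33 and 7.58 in tumor samples, against 5.39, 5.28 and 5.17 in normal samples. It rose by 2.26 ± 0.14 (adjusted p = 8.81e-05 in limma). GGCX, the carboxylase that forms Gla residues, rose by 0.50 ± 0.11 (adjusted p = 0.021), and VKORC1, which recycles vitamin K for it, by 0.56 ± 0.15 (adjusted p = 0.0349). The GGCX call was lost without tumor replicate 1, 2 or 3 or normal replicate 2 or 3 (adjusted p = 0.0544 to 0.0683), and the VKORC1 call without the same samples (adjusted p = 0.0584 to 0.111). SPARCL1, a matricellular protein not established as an inhibitor of calcification, rose by 2.59 ± 0.60 (adjusted p = 0.0219). Its adjusted p was 0.0609 to 0.0726 without tumor replicate 1 or 2 or normal replicate 2. Only 1 of the 4 passed without tumor replicate 1 or 2 or normal replicate 2, and 2 passed without tumor replicate 3 or normal replicate 3. With the mean of a gene's rows in place of the highest row, CHRDL1, a BMP antagonist, fell as well (-0.45, adjusted p = 0.0223). AHSG (fetuin-A) and TNFRSF11B (osteoprotegerin), further inhibitors, were under the background guide in both groups.

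Of 17 measured bone matrix proteins, 3 passed and all 3 rose (17.6%, beside 8.56% higher and 18.0% called in either direction over all genes), with a median difference of 0.06. In 8 of the 17 the groups did not overlap, beside 35.7% of all genes, a share that counts either direction. These 8 were higher in tumor cells, by as little as 0.01 between the nearest samples, and nothing is read from this count. Mean levels of the list were 8.03 to 8.22 in tumor samples and 7.18 to 7.43 in normal samples. These means do not show a rise across the list, since the 3 called genes differed by 2.90 to 5.64 and the others by -0.14 to 0.43. With a mean-variance trend, and with array weights, DCN and POSTN passed too and 5 rose. The 3 were the small proteoglycans ASPN (5.64 ± 0.41), OGN (4.56 ± 0.32) and OMD (2.90 ± 0.37), with adjusted p of 0.00022, 0.000192 and 0.0022 in limma. OMD, osteomodulin, binds mineral and collagen in bone, and was at 7.95, 7.72 and 6.73 in tumor samples, against 4.20, 4.27 and 5.23 in normal samples. BGLAP (osteocalcin), the late marker of osteoblasts, was at 2.77, 3.04 and 3.70 in tumor samples, against 3.51, 3.06 and 3.0 in normal samples. Its means of 3.17 in tumor and 3.19 in normal cells were under the background guide, and its difference of -0.02 ± 0.25 did not pass (adjusted p = 0.969). SPARC (osteonectin) and COL1A2, abundant in bone and in fibroblasts alike, differed by 0.04 ± 0.10 and 0.03 ± 0.10 (adjusted p = 0.828 and 0.898). COL5A1, COL5A2, DCN and POSTN, matrix proteins of fibroblasts too, differed by 0.22 to 0.43 without overlap and did not pass (adjusted p = 0.0749 to 0.194).

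Of 17 measured osteoblast transcription regulators, 1 rose (5.88%) and 2 fell (11.8%), beside 8.56% and 9.44% over all genes, with a median difference of -0.04. ZNF521, a zinc finger protein that binds RUNX2 and represses it in mouse cells, rose by 1.68 ± 0.22 (adjusted p = 0.00254). The homeobox genes MSX1 (-1.21 ± 0.22, adjusted p = 0.00862) and MSX2 (-0.76 ± 0.18, 0.0255) fell. The MSX2 call was lost without tumor replicate 1 or 3 or normal replicate 2 or 3 (adjusted p = 0.0538 to 0.0848). CBFB, the partner of RUNX2 on DNA, differed by -0.40 ± 0.12 and did not pass (adjusted p = 0.0544; 0.0368 to 0.0426 with a mean-variance trend or either filter on dim genes). Without tumor replicate 3 the list had 2 that rose, TWIST1 being the other, and 1 fell without tumor replicate 1 or 3 or normal replicate 2 or 3. Of 8 genes listed for osteocytes, not all of them confined to these cells, 1 rose and 1 fell (12.5% each). FGF2, a fibroblast growth factor with means of 9.88 in tumor and 7.81 in normal cells, rose by 2.07 ± 0.41. Its adjusted p was 0.0124 in limma, and 0.0518 without normal replicate 2. CAPG fell (-1.13 ± 0.21, adjusted p = 0.00942). SOST, the secreted Wnt inhibitor that marks osteocytes, differed by 0.40 ± 0.18 (adjusted p = 0.19; 0.0429 with array weights). PHEX and DKK1 were under the background guide in both groups. With array weights, 3 genes of this list rose, PHEX and SOST beside FGF2. With them 3 fell, PDPN and SLC8A3 beside CAPG (adjusted p = 0.00763 to 0.0429 for the 4 added). Without normal replicate 3, PDPN fell beside CAPG (-1.79, adjusted p = 0.00244).

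Genes of the signals that act on bone-forming cells, with receptors and antagonists among them, included calls of either sign. The list had 22 measured genes, and 9 rose (40.9%) and 3 fell (13.6%), beside 8.56% and 9.44% over all genes, with a median difference of 0.47. The list was chosen with results of this comparison known. IGF2, a growth factor, had the list's largest change and rose by 6.25 ± 0.26 (adjusted p = 1.99e-05 in limma). SFRP1, a secreted antagonist of Wnt, rose by 2.95 ± 0.23 (adjusted p = 0.000247). The bone morphogenetic proteins BMP6 (3.06 ± 0.23, adjusted p = 0.000247) and BMP4 (1.46 ± 0.11, 0.000277) rose, while BMP2 (-2.92 ± 0.21, 0.000205) and the receptor BMPR1B (-1.65 ± 0.14, 0.000401) fell. BMP2 was at 4.42, 5.08 and 5.07 in tumor samples, against 8.0, 7.77 and 7.55 in normal samples, with no overlap. The Wnt co-receptors LRP5 (1.24 ± 0.12, adjusted p = 0.000666) and LRP6 (0.65 ± 0.14, 0.0158; 0.0574 without normal replicate 2) rose. The other 3 that rose were the receptor BMPR1A (0.61), the BMP target ID2 (0.95) and the growth factor IGF1 (0.66), with adjusted p of 0.0388, 0.0351 and 0.0419. The BMPR1A call was lost without any 1 sample but tumor replicate 3 (adjusted p = 0.0587 to 0.112), the ID2 call without any 1 but normal replicate 3 (0.0649 to 0.117), and the IGF1 call without any 1 of the 6 (0.0509 to 0.113). GREM1, a secreted antagonist that blocks BMP2 and BMP4, fell (-4.55 ± 0.37, adjusted p = 0.000341). ID3, a target of BMP signaling, differed by 0.77 ± 0.27 and did not pass (adjusted p = 0.0894; 0.015 with array weights and 0.0136 without normal replicate 3). Without tumor replicate 1 or 2 or normal replicate 1, 6 rose, and without normal replicate 2, 5 rose, while 5 fell without normal replicate 1.

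Vitamin B6 phosphate is a further substrate of ALPL. Of the 3 measured genes of vitamin B6 metabolism, 0 passed in limma. PDXK, the kinase that makes the phosphate, differed by 0.16 ± 0.16 (adjusted p = 0.579). PDXP, which removes it inside the cell, differed by -0.54 ± 0.17 with no overlap (adjusted p = 0.0704 in limma) and passed with array weights (0.0379) and without normal replicate 1 (0.0398). PLPBP differed by -0.35 ± 0.14, also with no overlap (adjusted p = 0.144 in limma). At an unadjusted p of 0.05, 2 of the 3 would have passed, as would 5572 of all 18010 genes, so nothing is read from this count.

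**Figure D4:**
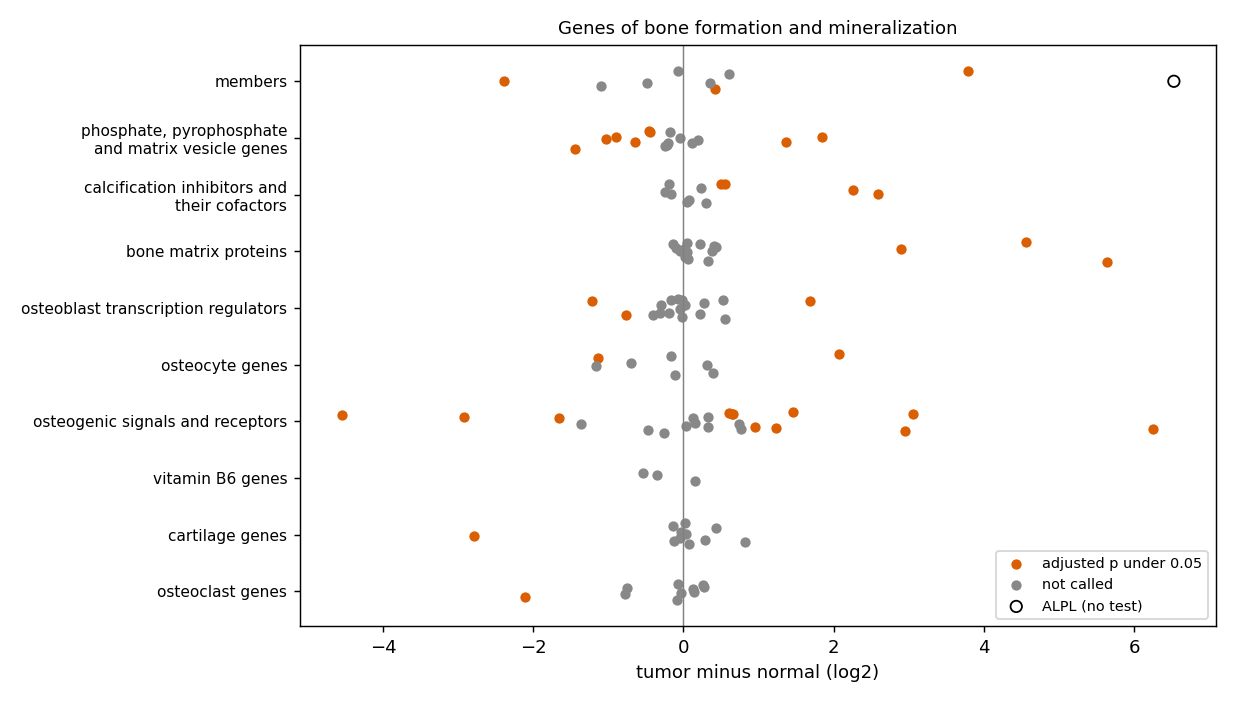
Tumor minus normal difference (log2, horizontal axis) of each measured gene in the lists of bone formation and mineralization; orange points passed an adjusted p of 0.05 in limma, grey points did not, and ALPL is an open circle without a test. Of the bone matrix proteins, ASPN, OGN and OMD lie at 2.90 to 5.64 and the others between -0.14 and 0.43, and osteogenic signals spread from -4.55 to 6.25.

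Markers of other cell types that hold ALPL or bone-type genes were read beside these results. Over all genes 18.0% were called, 8.56% higher and 9.44% lower in tumor cells. The cartilage, osteoclast, leukocyte and germ cell lists had 1 call each (9.09% to 11.1%), and nothing is read from those counts. Of 11 cartilage genes, 1 passed and fell, COL11A1 (-2.79 ± 0.13, adjusted p = 2.34e-05), with mean levels of 4.30 to 4.38 in tumor samples and 4.33 to 4.56 in normal samples, and the cartilage proteoglycan ACAN and COL10A1 under the background guide. Without normal replicate 1, and with array weights, SOX5 rose. Of 10 osteoclast genes, 1 passed, ITGB3, which fell (-2.11 ± 0.27, adjusted p = 0.00229), with mean levels of 4.57 to 4.76 in tumor samples and 4.74 to 5.18 in normal samples. Without normal replicate 3, and with array weights, OSCAR fell too. Of 9 germ cell markers, a cell type with high alkaline phosphatase in the embryo, 8 were under the background guide in both groups, DDX4, POU5F1 and NANOG among them. Mean levels of this list were 3.15 to 3.29 in tumor samples and 2.85 to 3.15 in normal samples. KIT, the ninth, rose by 1.87 ± 0.40 (adjusted p = 0.0162 in limma; 0.0507 and 0.0592 on leaving out tumor replicate 1 or 2). DAZL fell with quantile normalization (adjusted p = 0.0489) and without normal replicate 2 (0.0373). Leukocyte markers had mean levels of 3.50 to 3.59 in tumor samples and 3.29 to 3.41 in normal samples, with 1 of 10 that rose, the lysosomal protein CD68, and MS4A1 beside it with array weights. Of 7 endothelium markers, 0 passed in limma, and 0 had an unadjusted p under 0.05, with mean levels of 3.55 to 3.62 in tumor samples and 3.34 to 3.62 in normal samples. PECAM1 passed with array weights, lower in tumor cells (adjusted p = 0.0196).

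Of 7 epithelium markers, 3 fell (42.9%, beside 9.44% over all genes), all of them keratins. Mean levels of the list were 3.54 to 3.65 in tumor samples and 4.03 to 4.62 in normal samples. KRT18 was at 4.54, 4.32 and 4.23 in tumor samples, against 7.5, 7.99 and 5.93 in normal samples. KRT19 and KRT8 fell with it (adjusted p = 0.000406 and 0.0408 in limma), the second call lost without any 1 sample but normal replicate 3 (adjusted p = 0.08 to 0.135), while the fourth keratin, KRT7, averaged 4.24 in tumor and 4.04 in normal cells and did not pass (0.21 ± 0.18, adjusted p = 0.505). Of 10 pericyte and smooth muscle markers, 3 rose (30%) and 2 fell (20%), with mean levels of 5.66 to 6.43 in tumor samples and 5.63 to 5.77 in normal samples. MYH11 (1.92 ± 0.50, adjusted p = 0.035), NOTCH3 (1.42 ± 0.31, 0.0177) and ABCC9 (1.26 ± 0.32, 0.0325) rose, ABCC9 with both group means under the background guide. DES, with means of 10.79 in tumor and 11.88 in normal cells, fell (adjusted p = 0.0137, and 0.0549 without normal replicate 2). TAGLN (10.67 and 10.74) and CNN1 (10.34 and 10.11) also had high means and did not pass (adjusted p = 0.818 and 0.425). None of the list's genes rose without tumor replicate 2 or normal replicate 2, and 1 rose without normal replicate 1 or 3. Of 12 fibroblast markers, 3 rose (25%, beside 8.56% over all genes) and 0 fell. Mean levels of the list were 10.64 to 10.97 in tumor samples and 9.78 to 10.40 in normal samples. S100A4 (3.46 ± 0.36, adjusted p = 0.000945 in limma), PDGFRA (0.89 ± 0.20, 0.0204) and COL3A1 (0.61 ± 0.14, 0.0228) rose. The PDGFRA and COL3A1 calls were lost without tumor replicate 1 or 2 (adjusted p = 0.0708 to 0.0815 in limma). The part of these markers in the mineralization genes' values was not tested.

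The 5 genes with the profile nearest to ALPL were IGF2, A2M, CLEC2D, ASPN and FGL2, by the root mean square difference between values over the 6 samples after each gene's own mean was removed. IGF2, an insulin-like growth factor, was nearest, at 0.27, with 11.73, 10.98 and 10.83 in tumor samples, against 5.32, 4.73 and 4.75 in normal samples. A2M, a protease inhibitor of blood and tissue, and CLEC2D, a C-type lectin, were at 0.48 each, ASPN at 0.56 and FGL2, a fibrinogen-like protein, at 0.73. Pearson's r with ALPL was 0.991 to 0.997 over these samples, a value set mainly by the gap between the groups. The root mean square difference, too, was set mainly by the size of this gap, and the 5 genes ranked 3 to 7 by rise. None of the other mineralization genes was among these 5. The largest rise of those genes was 3.79, in MGP, so their absence follows from the measure.

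**Figure D5:**
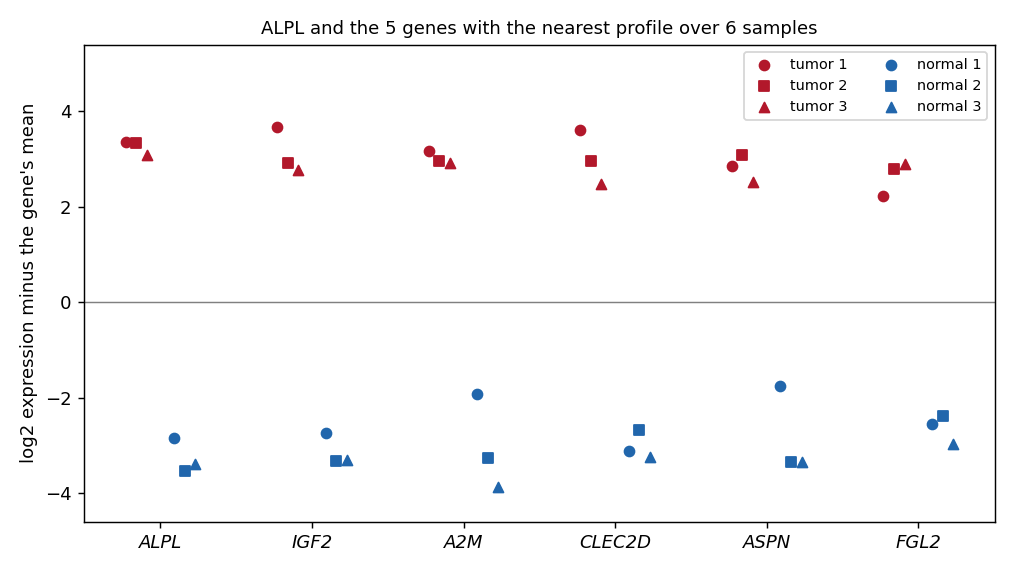
Log2 expression minus each gene's mean over the 6 samples for ALPL and the 5 genes nearest to it, in tumor (red, left) and normal (blue, right) samples. In all 6 genes every tumor sample was above the gene's mean and every normal sample below it.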

How the data were processed

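The authors deposited log2 expression values from RMA, per the submitters' processing notes; the RMA version is not given in the sources used here. Biotin-labelled RNA was made with a 3' amplification kit, per the labels' protocols; whether the array's probes lie at the 3' end or along the whole transcript is not given in the sources used here, so which part of a transcript each row read is unknown. Batches could not be examined, since scanner files and scan dates were not used here. The table had 24415 rows in 6 samples. The platform annotation, which can be old, named 18457 rows with 1 gene, 688 with several and left 5270 unnamed here. Each of 18010 genes was taken by its row with the highest mean (401 had over 1 row; no mineralization gene did). Symbols were compared with RefSeq (ARS-UCD2.0), where 17996 rows matched.

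Tumor and normal samples were fitted in limma 3.58.1 (R 4.3.3) with 2-sided moderated tests, no covariates and no filter, and Benjamini-Hochberg adjustment over all genes and a threshold of 0.05. The fit was tested on simulated data. The mineralization genes and the 15 further lists were chosen with earlier results of these data known, and lists are described by counts without a test. Named list genes follow 1 rule: up to 4 called members with the largest change and up to 2 not called with the highest level; not all that it picks are named. XPR1, SLC20A1, SLC29A1, ANXA6, ALPI, BGLAP, CBFB, BMP4, BMP2, BMPR1B, PDXP, LRP5, LRP6, BMPR1A, ID2, IGF1, CDH5, COL5A1, COL5A2, DCN, POSTN, genes that passed under an alternative and genes under the background guide were named for their roles, after their values were seen.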

Additional observations from a re-analysis of the deposited data

How the results depend on the processing

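Across 16 alternatives, ALPL stayed higher in tumor cells (6.39 to 6.74) and ANKH was called lower in each. The number of genes called, 3242, became 5054 with array weights and 1297 at an adjusted p of 0.01, and was 1765 to 3226 with 1 sample left out (1765 without normal replicate 2, 1887 without tumor replicate 2, 1968 without tumor replicate 1). Of the 8 genes beside ALPL, 3 were called, against 1 at an adjusted p of 0.01 and 1 to 2 with 1 sample left out (1 without tumor replicate 2 or 3). The number was 4 with array weights and with either filter on dim genes, where SP7 passed, and 2 with quantile normalization or median centring, where RUNX2 did not. For RUNX2 and MGP, which sit near the threshold, the cause of lost calls was not tested; a fit with 1 sample less has less precision by construction. PHOSPHO1 had no value under the filter at the olfactory receptor level, and other genes that either filter on dim genes left out had none under it. Counts of the lists under these alternatives were added after the data were seen.

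The titles give both groups replicate numbers 1 to 3. With the replicate block, 2895 genes and 2 of the 8 were called, and RUNX2 had an adjusted p of 0.079. Deviations from the group means of same-numbered samples correlated at 0.05, -0.08 and 0.07, and not every sample correlated best with its own number. With 3 samples per group, these values cannot tell whether same-numbered samples were paired, and pairing was left unsettled. Signal limits SP7, PHOSPHO1 and the genes under the olfactory receptor level, whose small differences cannot be told from background.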

Other observations

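The genes with the widest range among normal cultures, picked after their values were seen, were IBSP, NPS (a neuropeptide gene, range 6.65), NDUFA4L2 (4.87), RANBP3L (4.68), STC1 (a secreted glycoprotein hormone that acts on calcium and phosphate transport, 3.90) and MGP. In all 6 the highest value was in normal 1 and the lowest in normal 3. STC1 was at 9.76, 9.13 and 8.14 in tumor samples, against 7.45, 5.04 and 3.55 in normal samples. NPS was at 4.31, 5.63 and 5.12 in tumor samples, against 9.77, 5.06 and 3.12 in normal samples, so that, as for IBSP, the tumor samples fell inside the range of the normal samples.

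ECE1, the endothelin-converting enzyme, is the next protein-coding gene to ALPL on 1 side in the RefSeq table, and RAP1GAP on the other. ECE1, picked after its values were seen, differed by 1.91 (8.71 in tumor and 6.80 in normal cells on average, adjusted p = 0.000289 in limma), while RAP1GAP differed by 0.05 (adjusted p = 0.881).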
